A study of Mus musculus with 24 samples.

Results

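The Toll-like receptor genes Tlr1, Tlr2, Tlr3, Tlr4, Tlr5, Tlr6, Tlr7, Tlr8, Tlr9 and Tlr13 were followed across 24 RNA-seq libraries of mouse macrophage and lymphocyte co-cultures. They were found in the deposited count table by matching Ensembl identifiers to these symbols, which gave all 10 receptors among 55487 genes, and all 10 passed the filter on low counts. Bone-marrow-derived macrophages, either Tmem175 knockout (KO, Tmem175-/-) or wild type (WT), were cultured with splenic lymphocytes of mice that carried B16-F10-OVA tumours, a melanoma line that expresses the model antigen ovalbumin. Tmem175 encodes a lysosomal ion channel. The study asked how macrophage genotype, tumour antigen and added IL-1beta or IL-18 changed the co-cultures. There were 8 groups of 3 libraries, each a KO and a WT group in 4 conditions: B16-F10-OVA tumour cell antigen with IL-1beta at 500 pg/ml, antigen with IL-18 at 500 pg/ml, antigen alone, and no antigen. All groups shared the lymphocyte source, whose own genotype is not given in the labels. The titles name Tmem175 for all KO groups, although the genotype field of 11 of the 12 KO samples names other genes. The labels do not say whether replicates were separate mice, cultures or preparations, so p-values measure only the spread between these libraries.

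Toll-like receptors bind conserved microbial molecules and also nucleic acids and proteins released by damaged cells, and macrophages carry many of them. Tlr2, which pairs with Tlr1 or Tlr6 to sense lipopeptides, Tlr4, the receptor for lipopolysaccharide, and Tlr5, the receptor for flagellin, act at the cell surface. Tlr3 senses double-stranded RNA, Tlr7 and Tlr8 single-stranded RNA, Tlr9 unmethylated CpG DNA and Tlr13 bacterial ribosomal RNA. These nucleic acid receptors are carried to endolysosomes by Unc93b1, where proteases cut them into their active forms. Signals run through the adaptors Myd88 and Ticam1 to NF-kappaB and interferon regulatory factors.

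The promoters of 4 receptors are shown because they stand for both directions of the antigen response: Tlr2 and Tlr3, whose transcripts rose, and Tlr8 and Tlr13, whose transcripts fell. The sequences are from RefSeq on build GRCm38.p6 and run 5′ to 3′ on the gene's strand, from 250 bases before the annotated start site to 50 bases from it. The table held promoters for 8 of the 10 receptors. The count table was made on GRCm39, so no other coordinates are given. The Tlr2 window is chr3:83841559-83841858 and the Tlr3 window chr8:45410331-45410630, both on the minus strand. The Tlr8 window is chrX:167264280-167264579 on the minus strand, and the Tlr13 window chrX:106143025-106143324 on the plus strand. Capitals mark matches to the kappaB core in Tlr2 and Tlr3 and to the interferon element core in Tlr8.
Tlr2: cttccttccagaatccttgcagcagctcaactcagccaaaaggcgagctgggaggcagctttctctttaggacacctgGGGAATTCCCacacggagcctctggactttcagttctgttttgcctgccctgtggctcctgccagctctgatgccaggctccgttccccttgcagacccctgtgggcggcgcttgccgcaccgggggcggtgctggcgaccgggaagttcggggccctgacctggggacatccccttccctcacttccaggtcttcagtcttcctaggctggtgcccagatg
Tlr3: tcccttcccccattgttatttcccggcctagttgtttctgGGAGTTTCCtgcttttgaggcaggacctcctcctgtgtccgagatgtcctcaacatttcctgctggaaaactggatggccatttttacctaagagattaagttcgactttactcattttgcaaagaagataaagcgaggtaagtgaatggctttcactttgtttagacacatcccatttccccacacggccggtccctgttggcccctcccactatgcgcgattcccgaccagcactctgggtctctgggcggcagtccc
Tlr8: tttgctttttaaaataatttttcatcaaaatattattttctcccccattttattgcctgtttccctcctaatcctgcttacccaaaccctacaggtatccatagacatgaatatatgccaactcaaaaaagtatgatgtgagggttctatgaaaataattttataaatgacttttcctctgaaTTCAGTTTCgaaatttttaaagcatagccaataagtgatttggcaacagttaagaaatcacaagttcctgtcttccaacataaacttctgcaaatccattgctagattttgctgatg
Tlr13: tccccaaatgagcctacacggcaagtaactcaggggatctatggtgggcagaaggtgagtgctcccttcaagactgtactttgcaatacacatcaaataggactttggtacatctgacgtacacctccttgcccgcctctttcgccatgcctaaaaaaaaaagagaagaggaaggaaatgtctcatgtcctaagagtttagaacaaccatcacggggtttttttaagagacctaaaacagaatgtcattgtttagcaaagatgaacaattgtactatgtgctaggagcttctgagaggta

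The motifs were chosen after the sequences had been seen, and both strands were searched. The kappaB core, GGANTTNCC, was found in 3.95% of the 32851 mouse promoters of the same length. In Tlr2 it matched on both strands at 1 place, where the matches overlap from 172 to 163 bases before the start, and in Tlr3 it matched from 210 to 202 bases before it. The interferon element core, GAAANNGAA, was in 8.56% of promoters, and in Tlr8 it lay from 67 to 59 bases before the start. The Tlr13 window held no match to either core, nor to GAGGAAGT, the core bound by the myeloid factor PU.1 (in 3.2% of promoters), nor to the AP-1 site TGANTCA (in 7.81%). Tlr6 has 2 annotated starts, of which 1 held the interferon element core and the other the kappaB core. Tlr1 also has 2 annotated starts, of which 1 held the PU.1 core and the other none of the 4 motifs. The Tlr9 window held a PU.1 core and the AP-1 site, and Tlr5 held none of the 4 motifs. These matches describe letters in the windows and do not show binding.

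Library totals ranged from 17744540 to 24898552 counts, and 14099 genes holding 99.9% of counts were tested. Tmem175 was lower in KO in every condition, at 15, 14.1 and 14.6 CPM (counts scaled to the normalised library size) in KO without antigen, against 26.1, 25.5 and 24.4 CPM in WT (log2 fold change -0.79 ± 0.0731 (SE); edgeR, adjusted p = 3.74e-09). Its RNA was therefore reduced and not lost. Lymphocytes add RNA of their own to each library, and the source of the remaining Tmem175 RNA was not tested. The macrophage markers Adgre1 and Csf1r were at 1450 to 4790 CPM in the group means, whereas the defining T cell markers Cd3e, Cd3d and Trac stayed at or under 2.04 CPM. The 8 macrophage markers summed to 12100 CPM (11900 to 12300) in KO against 17300 CPM (17100 to 17600) in WT without antigen, and to 15700 CPM (14400 to 16700) in KO against 23800 CPM (23200 to 24300) in WT with antigen. Without Lyz2, which was lower in KO (log2 fold change -0.89 without antigen and -1.11 with it; edgeR, adjusted p = 5.11e-10 and 1.63e-11), the sums of the other 7 group means were 5980 CPM in KO and 6010 CPM in WT without antigen, and 8820 CPM in KO and 8970 CPM in WT with it. In bulk RNA, fewer cells that carry a receptor and less of its RNA per cell cannot be told apart.

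Per kilobase of the longest annotated transcript, the scale on which genes can be compared, Tlr13 had the highest mean level over the 24 libraries, at 106 CPM per kb. Tlr8 followed at 92.1, Tlr7 at 54.6 and Tlr2 at 53.9 CPM per kb. Tlr4 stood at 36.8, Tlr1 at 35.1, Tlr6 at 11.3, Tlr9 at 10.4 and Tlr3 at 6.86 CPM per kb. Tlr5 was lowest, at 0.382 CPM per kb and 8 to 57 counts in a library. In the group means Tlr2 was above Tlr7 in all 6 groups with antigen, for example at 61.1 CPM per kb beside 52.4 in KO and 64.6 beside 52.8 in WT with antigen alone, and below it without antigen. In WT with antigen alone Tlr8 and Tlr13 were close, at 79.5 and 78.5 CPM per kb. The order depends on which transcript is taken: with the median transcript length, the order began with Tlr8, Tlr13, Tlr4 and Tlr7, at 644, 196, 120 and 110 CPM per kb. Tlr1 and Tlr6 share 454 stretches of 50 bases (13.6% of those in Tlr1 and 12.3% in Tlr6), so reads could be split between them, and 381 exonic bases of Tlr3 overlap Gm45542 on the opposite strand, with no strand setting stated for the counting.

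**Figure D1:**
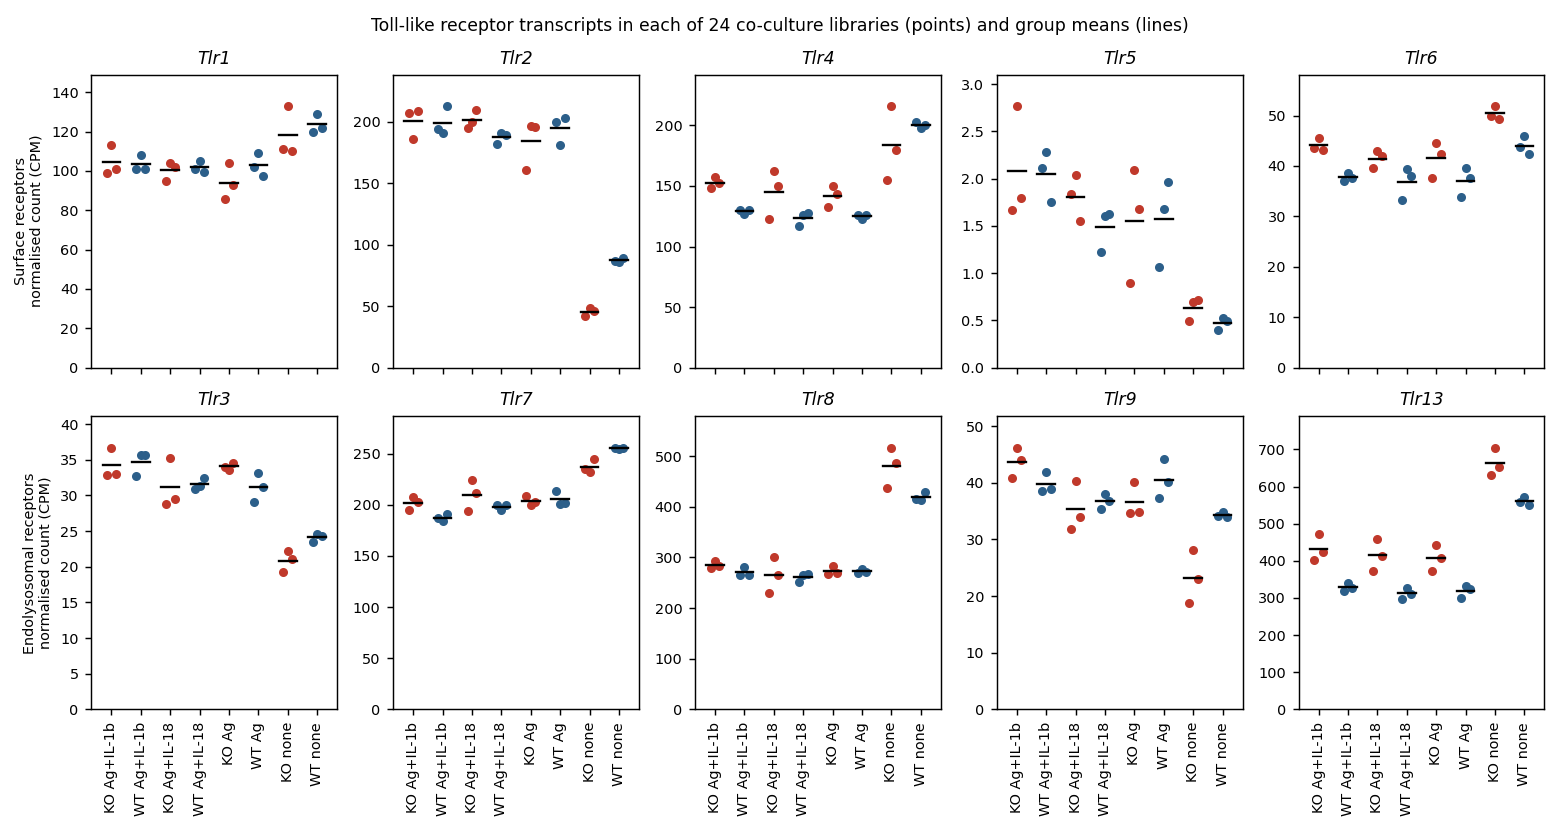
Normalised counts (CPM, vertical axes from 0) of the 10 receptors in each library, KO in red and WT in blue, with lines at the means of 3 libraries; Ag stands for tumour antigen. Tlr2 is lowest in KO cultures without antigen, and Tlr8 and Tlr13 are highest there.

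Tumour antigen changed all 10 receptors in both genotypes, 4 upward and 6 downward. Tlr2, Tlr5, Tlr3 and Tlr9 rose, and Tlr1, Tlr4, Tlr6, Tlr7, Tlr8 and Tlr13 fell, in KO and in WT cultures alike. These counts stand against a wide response: in KO 33.8% of all tested genes were higher with antigen and 34.6% lower, and in WT 33.5% were higher and 34.5% lower. The comparisons use edgeR's quasi-likelihood test with p-values adjusted over all 14099 genes and a threshold of 0.05. In both genotypes the libraries with antigen lay wholly above or wholly below those without for each of the 10 receptors. The share of all tested genes that separated in this way was not counted, so this is a description of the receptor values only.

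Among the surface receptors Tlr2 had the largest change in CPM. In KO cultures it was at 161, 197 and 196 CPM with antigen, against 42.2, 48.6 and 45.8 CPM without. In WT cultures it was at 200, 181 and 203 CPM with antigen, against 86.7, 86.1 and 88.9 CPM without. The groups lay far apart, and Tlr2 rose 4.05-fold in KO (log2 fold change 2.02 ± 0.0728; edgeR, adjusted p = 1.95e-16) and 2.23-fold in WT (1.16 ± 0.0691; edgeR, adjusted p = 1.6e-12). Tlr5, the flagellin receptor, rose 2.4-fold in KO and 3.34-fold in WT at very low levels, with means of 1.55 CPM against 0.634 CPM in KO and of 1.57 CPM against 0.473 CPM in WT.

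Tlr4 went the other way. In KO it was at 133, 150 and 143 CPM with antigen, against 155, 216 and 180 CPM without. In WT it was at 126, 123 and 126 CPM with antigen, against 203, 198 and 200 CPM without. The WT groups were tight and well separated, whereas the KO libraries without antigen were spread widely, with replicate 2 highest. Tlr4 fell by 0.37 ± 0.0943 on the log2 scale in KO (edgeR, adjusted p = 0.00187) and by 0.68 ± 0.095 in WT (edgeR, adjusted p = 3.97e-06). Without KO replicate 2 the KO value was -0.22 (edgeR, adjusted p = 0.0226). The Tlr2 partners Tlr1 and Tlr6 moved little: Tlr1 fell by 0.33 in KO and by 0.27 in WT, and Tlr6 by 0.28 in KO and by 0.24 in WT. Without KO replicate 2 the KO value of Tlr1 was -0.21 (edgeR, adjusted p = 0.00749).

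Among the endolysosomal receptors the most abundant ones fell. Tlr13 was at 372, 444 and 407 CPM with antigen in KO, against 631, 705 and 653 CPM without. In WT it was at 301, 331 and 325 CPM with antigen, against 558, 572 and 550 CPM without. Every library with antigen was below every library without, and Tlr13 fell by 0.70 ± 0.0733 on the log2 scale in KO (edgeR, adjusted p = 4.77e-08) and by 0.81 ± 0.0737 in WT (edgeR, adjusted p = 5.72e-09).

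Tlr8 was at 267, 284 and 269 CPM with antigen in KO, against 437, 517 and 487 CPM without. In WT it was at 270, 277 and 271 CPM with antigen, against 415, 413 and 430 CPM without. The genotypes thus reached the same level with antigen, and Tlr8 fell by 0.81 ± 0.0673 in KO (edgeR, adjusted p = 5.63e-10) and by 0.62 ± 0.0673 in WT (edgeR, adjusted p = 4.35e-08). Tlr7, the other receptor for single-stranded RNA, fell less, by 0.22 ± 0.0405 in KO and by 0.31 ± 0.0405 in WT.

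The receptors for double-stranded RNA and for CpG DNA rose. Tlr3 was at 34.0, 33.6 and 34.6 CPM with antigen in KO, against 19.3, 22.2 and 21.1 CPM without. In WT it was at 29.1, 33.2 and 31.2 CPM with antigen, against 23.5, 24.6 and 24.3 CPM without. Tlr3 rose 1.64-fold in KO (log2 fold change 0.71 ± 0.068; edgeR, adjusted p = 2.6e-10) and 1.3-fold in WT (0.37 ± 0.0678; edgeR, adjusted p = 1.83e-05).

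Tlr9 was at 34.6, 40.2 and 34.9 CPM with antigen in KO, against 18.7, 28.1 and 23.0 CPM without. In WT it was at 37.3, 44.2 and 40.1 CPM with antigen, against 34.2, 34.8 and 33.9 CPM without. The groups were apart in both genotypes, narrowly so in WT. Tlr9 rose 1.57-fold in KO (log2 fold change 0.65 ± 0.109; edgeR, adjusted p = 2.35e-05) and 1.19-fold in WT (0.25 ± 0.103; edgeR, adjusted p = 0.0417). The WT call was lost without the filter on low counts (edgeR, adjusted p = 0.0764), without WT replicate 1, 2 or 3 of the cultures with no antigen (edgeR, adjusted p = 0.0851, 0.0643 and 0.083) and without WT replicate 2 or 3 of those with antigen (edgeR, adjusted p = 0.19 and 0.0593).

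**Figure D2:**
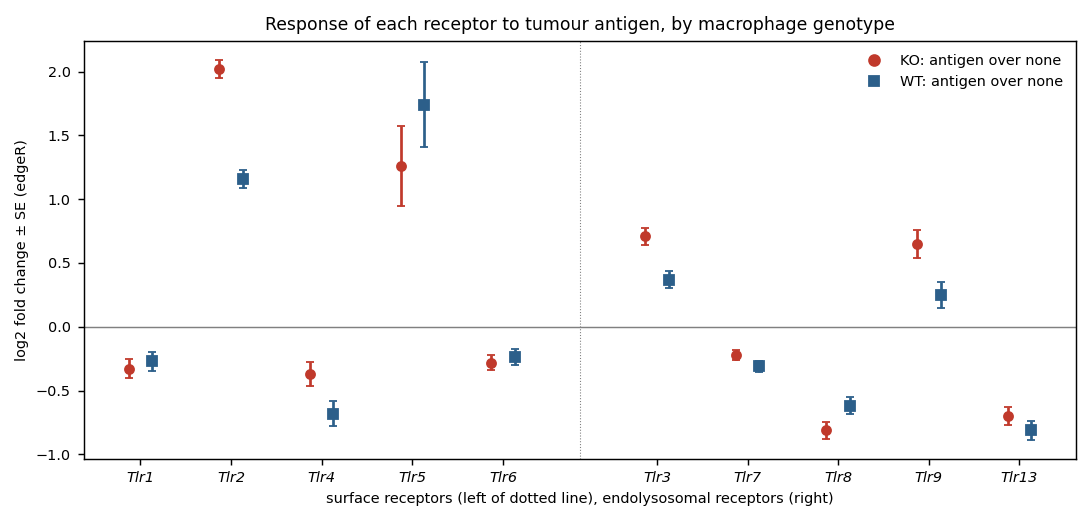
Log2 fold change with antigen over no antigen for each receptor (points) with its standard error from edgeR (bars), KO as red circles and WT as blue squares. Tlr2, Tlr5, Tlr3 and Tlr9 lie above 0 in both genotypes and the other 6 receptors below it.

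Surface and endolysosomal receptors did not split by direction, since each class had 2 members that rose and 3 that fell. The median log2 fold change with antigen was -0.28 over the surface receptors and -0.22 over the endolysosomal ones in KO, where the median over all tested genes was 0.01. In WT the medians were -0.24 and -0.31, and 0.00 over all tested genes. Summed per kilobase, the classes did diverge. The endolysosomal sum was 251 ± 11 CPM per kb with antigen and 376 ± 22.1 without in KO, and 230 ± 4.54 with and 341 ± 1.69 without in WT (SD, n = 3 each). The surface sum was 139 ± 12.6 CPM per kb with antigen and 113 ± 12.9 without in KO, with overlapping libraries, and averaged 140 with and 131 without in WT, where they did not overlap.

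The surface share of the summed receptor level was therefore larger with antigen, at 35.6% ± 1.27 with and 23.1% ± 1.06 without in KO, and at 37.8% ± 0.754 with and 27.8% ± 0.136 without in WT. Tlr13 and Tlr8 made up most of the endolysosomal sum; in the surface sum Tlr2 was the highest member with antigen (61.1 CPM per kb in KO and 64.6 in WT) and Tlr4 without it (45.1 in KO and 49.2 in WT). No test was made on these sums. With the median transcript length the shares were smaller, at 20.1% with antigen and 13.7% without in KO, and 20.3% with and 16.5% without in WT. Without antigen the surface share was lower in every KO library (22.5 to 24.3%) than in any WT library (27.6 to 27.9%). With IL-1beta and antigen it was 36.6% in KO and 38.6% in WT, and with IL-18 and antigen 37.1% in KO and 38.1% in WT.

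**Figure D3:**
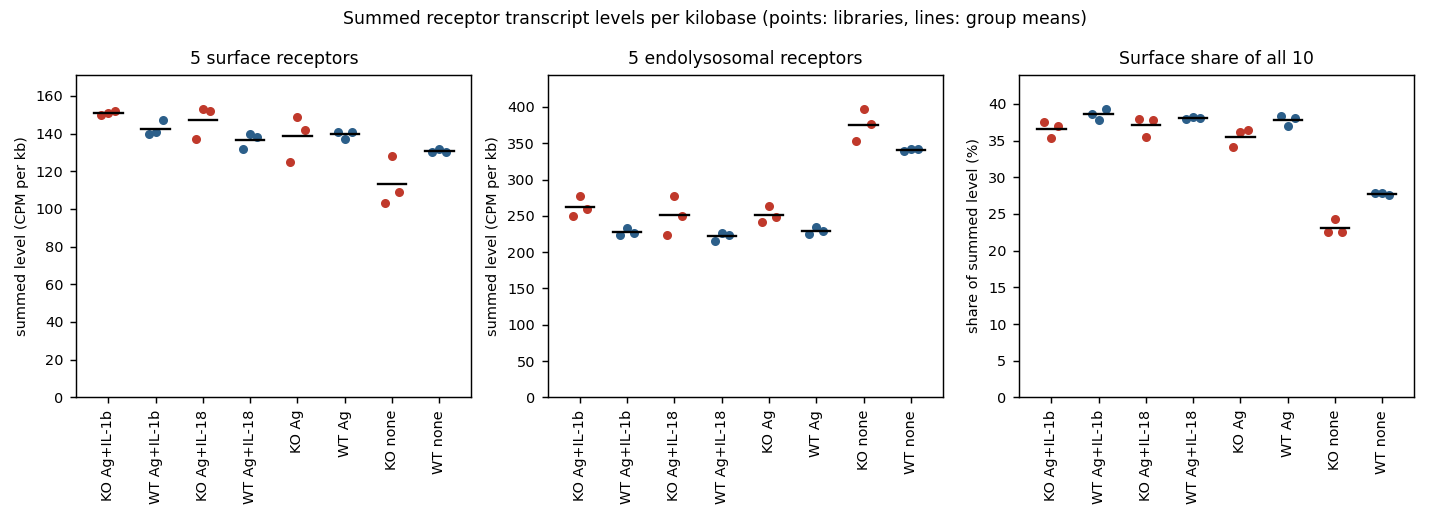
Summed level of the 5 surface receptors, summed level of the 5 endolysosomal receptors (both CPM per kb) and surface share of all 10 (%), for each library (KO red, WT blue) with lines at group means. The endolysosomal sum is lower in all cultures with antigen, and the surface share is lowest in KO cultures without antigen, at 22.5 to 24.3%.

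Without antigen, KO cultures differed from WT in 6 of the 10 receptors, 3 lower (Tlr2, Tlr9 and Tlr3) and 3 higher (Tlr13, Tlr6 and Tlr8); over all tested genes 9.62% were higher in KO and 7.25% lower. Tlr2 was at 42.2, 48.6 and 45.8 CPM in KO, against 86.7, 86.1 and 88.9 CPM in WT. The groups were wide apart, with Tlr2 1.92-fold lower in KO (log2 fold change -0.94 ± 0.0739; edgeR, adjusted p = 5.51e-09). Tlr9 was at 18.7, 28.1 and 23.0 CPM in KO, against 34.2, 34.8 and 33.9 CPM in WT, again without overlap (log2 fold change -0.56 ± 0.11; edgeR, adjusted p = 0.00111). These were the 2 calls that held under every alternative setting and with any 1 library left out.

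The other calls without antigen were small. Tlr13 was at 631, 705 and 653 CPM in KO, against 558, 572 and 550 CPM in WT (log2 fold change 0.24 ± 0.0728; edgeR, adjusted p = 0.026). Tlr8 was at 437, 517 and 487 CPM in KO, against 415, 413 and 430 CPM in WT (0.19 ± 0.0667; edgeR, adjusted p = 0.0498). Tlr6 averaged 50.4 ± 1.27 CPM in KO and 44.0 ± 1.8 CPM in WT (SD, n = 3 each; log2 fold change 0.20; edgeR, adjusted p = 0.0235), and Tlr3 averaged 20.9 ± 1.46 CPM in KO and 24.1 ± 0.562 CPM in WT (log2 fold change -0.21; edgeR, adjusted p = 0.0402). None of the 4 pairs of groups overlapped, and the share of all tested genes without overlap was not counted. Each of the 4 calls was lost on leaving out some single libraries. The Tlr13 call was lost without KO replicate 2 or 3 or WT replicate 1 or 3 (edgeR, adjusted p = 0.129, 0.0617, 0.0723 and 0.0849). The Tlr6 call was lost without KO replicate 2 or WT replicate 1 or 3 (edgeR, adjusted p = 0.0774, 0.0661 and 0.109). The Tlr8 call was lost without KO replicate 2 or 3 (edgeR, adjusted p = 0.248 and 0.151), without WT replicate 1, 2 or 3 (0.129, 0.13 and 0.0753), and in a fit of these 6 libraries alone (0.0916). The Tlr3 call was lost without KO replicate 1 or 3 (edgeR, adjusted p = 0.228 and 0.0988), without WT replicate 1, 2 or 3 (0.0612, 0.117 and 0.108), and in DESeq2 (0.083).

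Tlr4 showed the opposite case, with no call from all libraries (184 ± 30.7 CPM in KO and 200 ± 2.93 CPM in WT; edgeR, adjusted p = 0.436) and a lower value in KO without KO replicate 2 (log2 fold change -0.26; edgeR, adjusted p = 0.0301). Tlr1, Tlr5 and Tlr7 did not pass the test, with log2 fold changes of -0.07 ± 0.073, 0.42 ± 0.399 and -0.11 ± 0.0404, although Tlr7 passed in a fit of these 6 libraries alone (-0.13; edgeR, adjusted p = 0.0274). The number of receptors called was 4 without KO replicate 2, 3 without KO replicate 3, and 2 without WT replicate 1 or 3. KO replicate 2 differed most from its own replicates over all genes, with a chi-square of 15.9 and 10 per degree of freedom against replicates 1 and 3, where other replicate pairs in the study gave 1.45 to 9.94.

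Markers of other cells also differed between genotypes in this comparison, in both directions, beside 9.62% of all tested genes higher in KO and 7.25% lower. Of the 8 B cell markers tested, 4 were lower and 1 higher in KO without antigen, and their list summed to 72.5 CPM (65.7 to 78.8) in KO against 56.5 CPM (55.1 to 57.8) in WT, most of it from Cd22, which was higher in KO. Without Cd22 the group means of the other 9 markers summed to 12.3 CPM in KO and 15.3 CPM in WT. Of the 5 plasmacytoid dendritic cell markers tested, 2 were lower in KO, among them Siglech at 0.582 CPM in KO and 1.88 CPM in WT, and the list summed to 85.7 CPM (82.8 to 89.5) in KO against 91.1 CPM (88.8 to 93.3) in WT. Most of that sum was Tcf4, and without it the group means of the other 5 summed to 2.83 CPM in KO and 6.17 CPM in WT. Of the 7 plasma cell markers tested, 6 were higher in KO and none lower, with a sum of 581 CPM (554 to 609) in KO against 330 CPM (329 to 332) in WT. Without Jchain the sum of the group means was 390 CPM in KO and 322 CPM in WT. Of the 8 fibroblast markers 4 were lower in KO and none higher, with a sum of 26 CPM (16.3 to 33.4) in KO against 78.1 CPM (36.2 to 105) in WT. B cells and plasmacytoid dendritic cells are known carriers of Tlr9. Their part in the Tlr9 difference was not tested.

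With antigen, Tlr13 was called higher in KO under all 3 conditions. It was the only receptor called with antigen alone, where 7.7% of all genes were higher in KO and 7.62% lower, and the only one called with antigen and IL-18, where 9.89% were higher and 10.3% lower. With antigen and IL-1beta, Tlr13 and Tlr6 were called, both higher, beside 7.22% of genes higher in KO and 6.55% lower. The KO groups and the WT groups are separate libraries in each condition.

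Tlr13 was at 372, 444 and 407 CPM in KO with antigen, against 301, 331 and 325 CPM in WT (1.28-fold, log2 0.35 ± 0.0736; edgeR, adjusted p = 0.00216). With antigen and IL-1beta it was at 403, 471 and 425 CPM in KO, against 320, 339 and 328 CPM in WT (1.32-fold, log2 0.40 ± 0.0735; edgeR, adjusted p = 0.000899). With antigen and IL-18 it was at 373, 459 and 413 CPM in KO, against 297, 328 and 312 CPM in WT (1.33-fold, log2 0.41 ± 0.0736; edgeR, adjusted p = 0.000515). All 9 KO libraries with antigen were above the 9 WT libraries, and these 3 calls held under every alternative and with any 1 library left out. In each group with antigen replicate 1 was lowest and replicate 2 highest. The labels do not say whether the same preparations were used in these conditions, so the conditions are not counted as independent results.

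Tlr6 was at 43.5, 45.6 and 43.2 CPM in KO with antigen and IL-1beta, against 37.1, 38.7 and 37.7 CPM in WT (log2 fold change 0.22 ± 0.062; edgeR, adjusted p = 0.0151). The call was lost without KO replicate 2 (edgeR, adjusted p = 0.0736) or WT replicate 1 (0.0633). With antigen and IL-18, Tlr6 did not pass the test with all libraries (0.17 ± 0.0624; edgeR, adjusted p = 0.0606) and passed it without KO replicate 1 (0.0489), without WT replicate 2 (0.0333) and without the filter on low counts (0.0213). With antigen alone the value was 0.16 ± 0.0624 (edgeR, adjusted p = 0.0855), and the test was passed without KO replicate 1 (0.0134), without WT replicate 2 (0.0399) and without the filter (0.028). With a term for replicate number Tlr6 also passed with IL-18 (edgeR, adjusted p = 0.00885) and with antigen alone (edgeR, adjusted p = 0.0138).

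Tlr4 was higher in KO in group means in all 3 conditions with antigen, at 152 CPM in KO and 129 CPM in WT with IL-1beta, 145 CPM in KO and 124 CPM in WT with IL-18, and 142 CPM in KO and 125 CPM in WT with antigen alone, without passing the test (edgeR, adjusted p = 0.111, 0.102 and 0.23). It passed in fits of the compared libraries alone with IL-1beta (edgeR, adjusted p = 0.000292) and with antigen alone (0.0167), and without KO replicate 1 with IL-18 (0.0151). Tlr2, so different without antigen, had log2 differences of 0.01 ± 0.0664, 0.11 ± 0.0665 and -0.08 ± 0.0666 with antigen and IL-1beta, antigen and IL-18, and antigen alone, none of them called. Tlr7 did not pass in any of the 3, with values of 0.11, 0.08 and -0.01, but passed with IL-1beta in a fit of the compared libraries alone (0.11; edgeR, adjusted p = 0.0453) and without KO replicate 1 (0.15; edgeR, adjusted p = 0.0291). With IL-18 it passed when KO replicate 1 was left out (0.14; edgeR, adjusted p = 0.0159). Tlr1, Tlr3, Tlr5, Tlr8 and Tlr9 were not called with antigen in any of these 3 comparisons by this test. Of all tested genes, 7.22% were higher and 6.55% lower in KO with IL-1beta, 9.89% and 10.3% with IL-18, and 7.7% and 7.62% with antigen alone. Neutrophil markers moved with genotype in the same conditions: 8 of 10 were higher in KO with IL-1beta and 7 of 10 with IL-18, and 2 of 10 with antigen alone, with none lower. Their list summed to 582 CPM (488 to 634) in KO against 387 CPM (362 to 412) in WT with IL-1beta, 591 CPM (518 to 644) against 372 CPM (354 to 382) with IL-18, and 447 CPM (425 to 477) against 419 CPM (383 to 468) with antigen alone. Of 7 plasma cell markers, 6, 6 and 5 were higher in KO with IL-1beta, with IL-18 and with antigen alone, and 1 was lower in each, with sums of 476 CPM in KO and 324 CPM in WT, 498 CPM in KO and 312 CPM in WT, and 453 CPM in KO and 317 CPM in WT. Without Jchain the plasma cell sums were 319 CPM in KO and 317 CPM in WT, 322 CPM in KO and 306 CPM in WT, and 309 CPM in KO and 310 CPM in WT. Of 8 fibroblast markers 5 were lower in KO and none higher in each condition, with sums of 44.8 CPM in KO and 137 CPM in WT, 48.5 CPM in KO and 155 CPM in WT, and 53.2 CPM in KO and 169 CPM in WT. The part of these cells in the receptor differences was not tested.

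**Figure D4:**
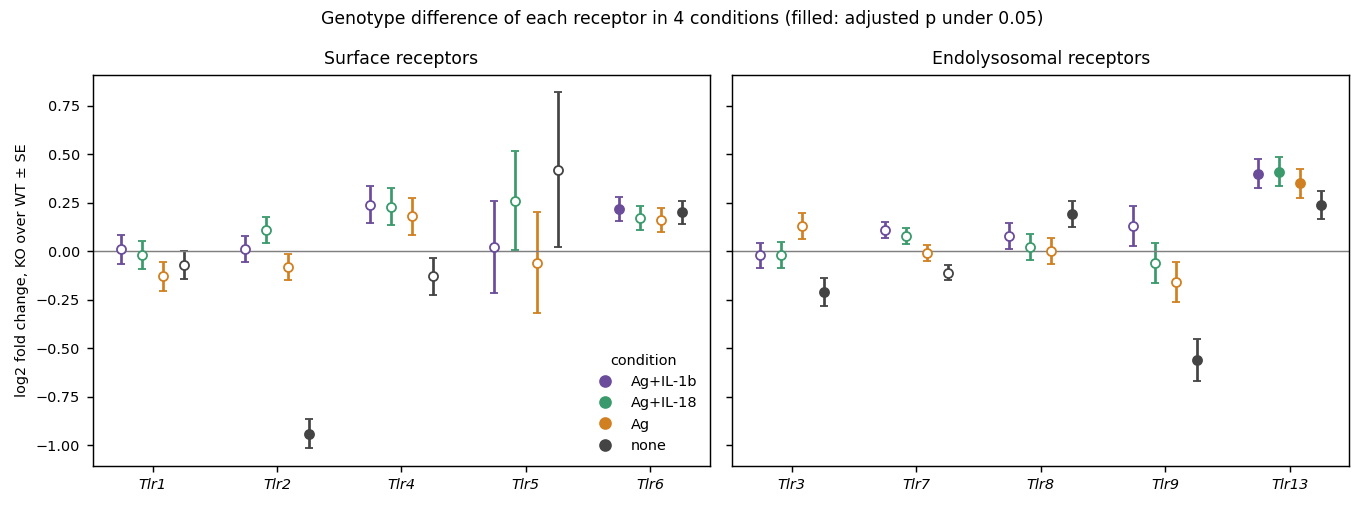
Log2 fold change of KO over WT for each receptor with its standard error from edgeR, in 4 conditions by colour, filled where the adjusted p was under 0.05. Tlr2 and Tlr9 lie below 0 without antigen, at -0.94 and -0.56, and Tlr13 lies above 0 in all 4 conditions, from 0.24 to 0.41.

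The antigen response itself differed between genotypes for Tlr2 and Tlr3, both with a larger rise in KO. Of all tested genes, 3.79% were called with a positive difference, KO minus WT, and 4.6% with a negative one. For Tlr2 the difference of the responses, KO minus WT, was 0.86 ± 0.0994 on the log2 scale (edgeR, adjusted p = 9.09e-06). The libraries behind it show a lower starting level in KO and overlapping levels with antigen (161 to 197 CPM in KO and 181 to 203 CPM in WT). For Tlr3 the difference was 0.34 ± 0.0962 (edgeR, adjusted p = 0.0268), and the call was lost without KO replicate 1 or 3 or WT replicate 2 or 3 of the cultures with no antigen (edgeR, adjusted p = 0.107, 0.0622, 0.0644 and 0.0589), and without KO replicate 3 or WT replicate 1 of those with antigen (0.0573 and 0.0732). Tlr9 and Tlr4 had differences of 0.41 ± 0.15 and 0.31 ± 0.134 that did not pass (edgeR, adjusted p = 0.109 and 0.184), and both passed without KO replicate 2 of the cultures with no antigen (0.56 and 0.44; edgeR, adjusted p = 0.00543 and 0.012). The 6 other receptors had differences between -0.48 (Tlr5) and 0.11 (Tlr13), none of them called, although Tlr8 passed without the filter on low counts (-0.20; edgeR, adjusted p = 0.0412).

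No receptor passed edgeR's or DESeq2's test for either cytokine on top of antigen, in either genotype, in the 1 fit of all groups; 2 calls gained in another fit are given with the settings. IL-1beta with antigen against antigen alone gave 0 of 10 calls in KO, where 0.0426% of genes were higher and 0% lower, and 0 of 10 in WT, where 0.0284% were higher and 0.0284% lower. IL-18 with antigen against antigen alone gave 0 of 10 in KO, where 0.0496% of genes were higher and 0.163% lower, and 0 of 10 in WT, where 0% were higher and 0% lower. These shares depend on the settings. The 6 genes called with IL-1beta in KO became 422 with a term for replicate number and 287 without the filter. Without KO replicate 1 of the cultures with antigen alone, 1 was called. The 30 genes called with IL-18 in KO became 302 without the filter and 0 in a fit of the compared libraries alone. In WT the 8 genes called with IL-1beta became 102 with the replicate term. At an unadjusted p under 0.05 by edgeR there were 1 and 2 receptors with IL-1beta in KO and WT, and 1 and 0 with IL-18.

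The receptors behind these counts were Tlr9 in KO with IL-1beta, at 40.9, 46.2 and 44.0 CPM against 34.6, 40.2 and 34.9 CPM with antigen alone (log2 fold change 0.26 ± 0.101; edgeR, adjusted p = 0.283). In WT with IL-1beta they were Tlr7, at 187, 184 and 191 CPM against 214, 201 and 202 CPM (-0.14 ± 0.0407; edgeR, adjusted p = 0.339), and Tlr3 (0.15 ± 0.0646; edgeR, adjusted p = 0.493). In KO with IL-18 it was Tlr3 (-0.13 ± 0.0644; edgeR, adjusted p = 0.401). Tlr7 in WT and Tlr9 in KO did not overlap between the compared groups. The differences of the cytokine responses between genotypes, KO minus WT, also gave 0 of 10 calls by edgeR and DESeq2 for IL-1beta and for IL-18, beside 0% of all genes higher or lower for each, with 1 and 0 receptors at an unadjusted p under 0.05.

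The proteins that help surface receptors bind their ligands moved both ways with antigen, 3 of 6 higher and 3 of 6 lower in each genotype, beside 33.8% of all tested genes higher and 34.6% lower in KO and 33.5% higher and 34.5% lower in WT. Cd14, which hands lipopolysaccharide to Tlr4, averaged 558 CPM with antigen and 166 CPM without in KO, and 848 CPM with and 216 CPM without in WT (log2 fold change 1.75 and 1.97). Lbp, the serum protein that binds lipopolysaccharide, rose by 2.05 in KO and 1.72 in WT on the log2 scale, and Ly96, the subunit of Tlr4 that binds lipopolysaccharide, by 0.38 and 0.40. Cd36, a scavenger receptor that works with Tlr2 and Tlr6, fell by 2.59 in KO and by 2.69 in WT, and Cd180, a relative of Tlr4, fell by 1.38 and 1.48. Ly86, the partner of Cd180, fell by 0.67 in WT (edgeR, adjusted p = 0.000747) and by 0.41 in KO (edgeR, adjusted p = 0.0242), where the libraries overlapped. The KO call of Ly86 was lost without KO replicate 2 of the cultures with no antigen (-0.14; edgeR, adjusted p = 0.312) and without KO replicate 1 or 3 of those with antigen (-0.32 and -0.41; edgeR, adjusted p = 0.114 and 0.0505).

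Genes for the folding, transport and cleavage of the receptors were split, with 6 higher and 8 lower of 15 in KO and 7 higher and 7 lower in WT, beside 33.8% of all tested genes higher and 34.6% lower in KO and 33.5% higher and 34.5% lower in WT. Cnpy3, a folding chaperone of the receptors, rose by 0.56 in KO and 0.55 in WT, Slc15a3, a transporter of endolysosomal membranes, by 0.39 and 0.45, and Unc93b1, which carries the nucleic acid receptors, by 0.32 and 0.31 on the log2 scale. Rab7b, a GTPase of late endosomes, fell by 1.70 in KO and by 1.72 in WT, and the proteases Ctsk and Ctsl fell by 1.31 and 0.89 in KO and by 1.40 and 0.44 in WT. The nucleases of the endolysosome, which degrade or process receptor ligands, had 3 of 5 higher and 2 of 5 lower in each genotype. Pld4 rose by 1.28 in KO and 0.82 in WT, while Pld3 fell by 1.33 and 1.04 and Dnase2a by 1.39 and 1.27. Rnaset2a and Rnaset2b were called higher at 1.22 to 1.79 CPM with antigen, but they are near-identical copies whose reads counting could split.

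Adaptors and signalling genes leaned upward with antigen, with 17 higher and 3 lower of 25 tested in KO and 18 higher and 5 lower in WT, beside 33.8% of all tested genes higher and 34.6% lower in KO and 33.5% higher and 34.5% lower in WT. The median log2 fold change of the list was 0.37 in KO and 0.39 in WT, beside 0.01 and 0.00 over all tested genes. Irf7, the interferon regulatory factor downstream of Tlr7 and Tlr9, averaged 589 CPM with antigen and 16.8 CPM without in KO, and 528 CPM with and 23.2 CPM without in WT. Ticam2, an adaptor of Tlr4, rose by 1.01 in KO and 1.09 in WT, Traf3 by 1.05 and 1.00, and Myd88 by 0.63 and 0.44 on the log2 scale. Irf5 fell by 0.56 in KO and by 0.52 in WT, Tab1 by 0.38 and 0.52, and Tirap, the bridging adaptor of Tlr2 and Tlr4, by 0.30 and 0.48.

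Negative regulators had 9 higher and 6 lower of 16 tested in KO, and 7 higher and 6 lower in WT, beside 33.8% of all tested genes higher and 34.6% lower in KO and 33.5% higher and 34.5% lower in WT. Irak3, a kinase relative that restrains Myd88 signalling, averaged 281 CPM with antigen and 30.8 CPM without in KO, and 289 CPM with and 34.2 CPM without in WT. Socs1 rose by 3.88 in KO and 3.64 in WT and Dusp1 by 2.11 and 1.88, while Tnip3 fell by 0.47 and 0.44 on the log2 scale. Genes known to be induced downstream of the receptors had 13 of 14 tested higher in KO and none lower, and 13 of 14 higher and 1 lower in WT, with a median of 4.29 in each. Nos2, Il1b and Ccl5 rose by 9.67, 7.36 and 6.4 in KO and by 8.75, 6.66 and 5.26 in WT. Ifnb1 was under the filter, with means of 0.0591 CPM with antigen and 0 without in KO. Of 14 other pattern recognition receptors, 12 were higher and 1 lower in KO, and 10 higher and 1 lower in WT. Clec4e, a receptor for mycobacterial glycolipids, rose by 5.08 in KO and 4.41 in WT, and Clec7a, the receptor for beta-glucans, fell by 3.10 and 3.00.

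The marker counts with antigen stand beside 33.8% of all tested genes higher and 34.6% lower in KO, and 33.5% higher and 34.5% lower in WT. The neutrophil marker list moved with antigen, with 8 of 10 lower and 1 higher in KO and 9 of 10 lower in WT. It summed to 447 CPM (425 to 477) with antigen and 1310 CPM (1280 to 1370) without in KO, and to 419 CPM (383 to 468) with and 1310 CPM (1220 to 1380) without in WT. Ltf averaged 3.41 CPM with antigen and 123 CPM without in KO, and Ly6g 0.0454 CPM with and 0.891 CPM without. Of the 8 macrophage markers, 4 were higher and 3 lower with antigen in each genotype. Of the 10 T cell markers Cd28 was the 1 that fell in KO, while 5 rose, with Cd28 at 6.51 CPM with antigen against 104 CPM without. In WT only 1 of the 10 T cell markers was higher and 1 lower. The median log2 fold change of that list was 0.49 in KO and 0.03 in WT. Of the 8 B cell markers tested, 5 were higher and 1 lower with antigen in KO, and 3 higher and none lower in WT. Without Cd22 their group means summed to 20.5 CPM with antigen and 12.3 CPM without in KO, and to 22.3 CPM with and 15.3 CPM without in WT. Of the 5 plasmacytoid dendritic cell markers tested, 1 was higher and 1 lower in KO, and 1 higher and 2 lower in WT. Without Tcf4 that list summed to 10.8 CPM with antigen and 2.83 CPM without in KO, and to 13.5 CPM with and 6.17 CPM without in WT. The median log2 fold change of its tested markers was -0.02 in KO and 0.03 in WT. Fibroblast markers were 4 of 8 higher in KO and 5 of 8 in WT, with none lower, and plasma cell markers 2 of 7 higher and 3 lower in KO and 1 of 7 higher and 2 lower in WT. Neutrophils carry Tlr2, Tlr4 and Tlr8, and the part of these cells in the antigen differences was not tested.

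Between genotypes without antigen, the inducible genes were 7 of 14 lower in KO and none higher, with a median log2 fold change of -1.13; of all tested genes 9.62% were higher in KO and 7.25% lower, the share beside which the counts of the other lists stand too. Cxcl10 averaged 6.45 CPM in KO and 19.7 CPM in WT (log2 fold change -1.63; edgeR, adjusted p = 0.000909), Ifit1 10.2 CPM in KO and 22.2 CPM in WT (-1.14; edgeR, adjusted p = 0.0053) and Nfkbiz 14.3 CPM in KO and 25.9 CPM in WT (-0.85; edgeR, adjusted p = 5.53e-05). In a fit of these 6 libraries alone Cxcl10 and Ifit1 were not called (edgeR, adjusted p = 0.154 and 0.166). Other pattern recognition receptors had 7 of 14 lower and 2 higher, with Sting1, the sensor of cyclic dinucleotides, at 40.5 CPM in KO and 50.4 CPM in WT, and Clec7a at 2090 CPM in KO and 1400 CPM in WT. Of 6 co-receptor genes, Cd36 and Ly96 were higher in KO and Cd14 lower, at 166 CPM in KO and 216 CPM in WT. The Ly96 call (0.17; edgeR, adjusted p = 0.0316) was lost without KO replicate 3 or WT replicate 2 or 3 (edgeR, adjusted p = 0.256, 0.0911 and 0.0951). Of 15 folding, trafficking and cleavage genes 6 were higher in KO and none lower, among them Ctsl at 3060 CPM in KO and 1970 CPM in WT and Ctss at 6710 CPM in KO and 4960 CPM in WT. Adaptors had 1 of 25 higher and 3 lower, negative regulators 2 of 16 higher and 4 lower, and nucleases 2 of 5 higher and 1 lower.

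With antigen alone, where 7.7% of all tested genes were higher in KO and 7.62% lower, the inducible genes were 5 of 14 lower and none higher, among them Il12b, which averaged 2.22 CPM in KO and 7 CPM in WT (log2 fold change -1.63; edgeR, adjusted p = 1.92e-07), and Cxcl1, at 5.44 CPM in KO and 11.2 CPM in WT (-1.04; edgeR, adjusted p = 7.7e-07). They were 6 of 14 lower and none higher with IL-1beta, where 7.22% of genes were higher in KO and 6.55% lower, and likewise with IL-18, where 9.89% were higher and 10.3% lower. Cd14 was lower in KO in all 3 conditions with antigen, with log2 fold changes of -0.46, -0.45 and -0.61 with IL-1beta, with IL-18 and with antigen alone, and Cd36 was higher, with values of 0.77, 0.70 and 0.64. Folding, trafficking and cleavage genes were 7, 7 and 6 of 15 higher in KO in the same order, with 0, 1 and 1 lower. Myd88 averaged 92.7 CPM in KO and 80.6 CPM in WT with antigen alone (log2 fold change 0.20; edgeR, adjusted p = 0.002).

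**Figure D5:**
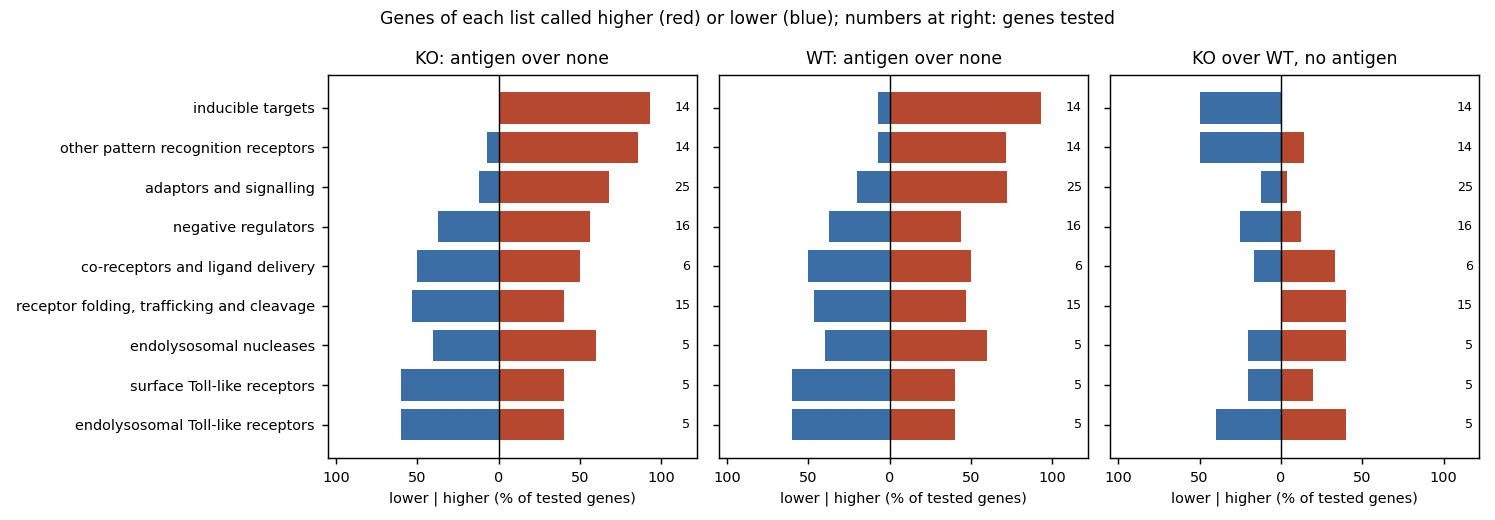
Share of the tested genes of each list (%) called higher (red, right) or lower (blue, left) in KO with antigen over none, in WT with antigen over none, and in KO over WT without antigen; the number at the right is the count of genes tested. Inducible genes have 13 of 14 members higher with antigen in each genotype, whereas each receptor class has 2 of 5 higher and 3 of 5 lower.

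By group means, Tlr2, Tlr5, Tlr3 and Tlr9 were higher in every group with antigen than in either group without. Tlr1, Tlr4, Tlr7, Tlr8 and Tlr13 were lower in every group with antigen. Tlr6 did not divide in this way, at 44.1 CPM in KO with antigen and IL-1beta and 44 CPM in WT without antigen. Tlr2 followed Tlr3 closely (Pearson r of log2 CPM 0.96) and ran opposite to Tlr8 (-0.98), and Tlr13 followed Tlr6 (0.96) and Tlr4 (0.95). These values describe 8 group means that share the step between cultures with and without antigen. Among 9682 genes with a mean of at least 5 CPM, the 3 whose group means were most like those of Tlr2 were Ifit1, Marcksl1 and Apobec3 (r of 0.997, 0.997 and 0.996). For Tlr4 they were Tyms, Cenpt and Mcm2 (0.999, 0.997 and 0.997), for Tlr8 Iah1, Mindy1 and Abcg1 (0.998 each), and for Tlr13 Plaur, Lair1 and Atg7 (0.996, 0.995 and 0.995). For Tlr9 they were Samd9l, Ifi203 and Ccnd2, with lower values of 0.974, 0.964 and 0.96.
For Tlr3 they were Heatr1, Arel1 and Setdb2 (0.989, 0.988 and 0.988), and for Tlr7 Noc3l, Rcc2 and Cmtr2 (0.986, 0.985 and 0.983). For Tlr1 they were Zbtb24, Kmt5c and Csrp1 (0.994, 0.991 and 0.989), for Tlr5 Tnfaip2, Mmp8 and Neil1 (0.991, 0.991 and 0.99), and for Tlr6 C3ar1, Tmsb10 and Gpsm2 (0.991, 0.991 and 0.988).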

How the data were processed

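Poly(A) RNA of 24 co-cultures was sequenced, and the authors deposited 1 table of raw counts per gene (Ensembl identifiers). Per the submitters' processing notes, fastp was used and the genome build was GRCm39; the aligner, counter, annotation and strand setting are not given in the sources used here. All 24 value columns matched a sample. Genes were filtered with filterByExpr (14099 of 55487 kept), scaled by TMM and tested with edgeR 4.0.16 (quasi-likelihood, robust, R 4.3.3) in 1 fit of 8 groups with 16 residual degrees of freedom. The fit gave 13 comparisons, 10 between groups and 3 differences of responses, each adjusted over all tested genes by Benjamini-Hochberg with a threshold of 0.05. The script was tested on simulated data. Log2 fold changes carry standard errors, and CPM values carry SDs over 3 libraries. Precision is limited by 3 libraries a group and, for Tlr5, by 8 to 57 counts. Alternatives were median-of-ratios scaling, no filter, a replicate term, fits of the compared libraries alone, DESeq2 1.42.0, leaving out each library, and the median transcript length.

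The receptors and gene lists were chosen with earlier results of these data known. All receptors are described. From each list, called genes whose groups did not overlap could be named, up to 3 highest and 3 lowest, and all members of lists of 6 or fewer. For each receptor the 3 genes with the highest Pearson r over 8 group means (log2 CPM, pseudocount 0.5) are named. Sting1, Clec7a, Ctss, Myd88 and other genes named between genotypes to follow a role were partly chosen after their values were seen. Of the listed genes, 1 did not match an identifier.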

Additional observations from a re-analysis of the deposited data

Results flagged for a closer look

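The antigen response differed between genotypes, by an interaction term in edgeR, for 15 of the receptors and list genes, and all differences are KO minus WT on the log2 scale. Tlr2 had a difference of 0.86 (adjusted p = 9.09e-06) and Tlr3 one of 0.34 (adjusted p = 0.0268). Positive differences were also found for the interferon-induced gene Ifit1 (1.21), the NF-kappaB regulator Nfkbiz (0.61), the nuclease Pld4 (0.47), the sensors Nod1 (0.34), Sting1 (0.33) and Ifih1 (0.30), the kinase Ikbke (0.29), Irf3 (0.24) and the trafficking subunit Ap3d1 (0.22). Negative differences were found for Atf3 (-0.49), the protease Ctsl (-0.45), the nuclease Pld3 (-0.29) and the trafficking gene Tmed7 (-0.14). Ctsl and Pld3 fell with antigen in both genotypes and fell further in KO, so their negative sign marks a deeper fall. The call held under all 17 alternatives for 5 of the 15, which were Tlr2, Ap3d1, Ikbke, Atf3 and Nfkbiz. It was lost under 14 of 17 alternatives for Irf3, 13 for Tmed7, 7 for Ifih1, 6 each for Tlr3 and Ifit1, 5 for Nod1, 2 for Ctsl and 1 each for Pld3, Pld4 and Sting1. Causes were not tested.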

How the results depend on the processing

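Of 1610 receptor fold changes recomputed under the alternatives, 1554 kept their side of the threshold, 33 calls were lost and 23 gained. No kept call changed direction. Differences called neither before nor after are among the 1554 even where their sign changed. Among list genes, 323 calls were lost and 164 gained in 15765 recomputations, and 1 reversed: Ptpn6 with antigen in KO was -0.04 and uncalled with all libraries, ranged from -0.13 to 0.12 with 1 library left out, and was called higher (edgeR, adjusted p = 0.0107) without KO replicate 2 of the cultures with no antigen.

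The number of receptors called between KO and WT with antigen alone was 1, against 2 without the filter, 3 with the replicate block and 2 in a fit of the compared libraries alone. With IL-1beta it was 2, against 4 in a fit of the compared libraries alone, and with IL-18 it was 1, against 2 without the filter and 2 with the replicate block. Adding IL-1beta in KO gave 0, against 2 with the replicate block (Tlr1 0.15 and Tlr9 0.26; edgeR, adjusted p = 0.0481 and 0.013). Leaving out 1 library gave 2 to 5 receptors between genotypes without antigen (6 with all), 1 to 2 with antigen alone, 1 to 3 with IL-1beta, 1 to 4 with IL-18 and 1 to 4 for the antigen response (2 with all). The causes were not tested. With the replicate block, Tlr1 and Tlr6 were gained with antigen alone (edgeR, adjusted p = 0.0269 and 0.0138), Tlr6 with IL-18 (0.17; adjusted p = 0.00885), and the antigen response of Tlr9 was called (0.42; edgeR, adjusted p = 0.00144). Of 84 correlations between same-numbered libraries, taken on deviations from the group means, 37 exceeded 0.1 (-0.05 to 0.36, median 0.09). Those between libraries numbered 2 ran from 0.04 to 0.36. With the replicate block the genes called between genotypes without antigen rose from 2379 to 2876. Whether libraries with the same number share a preparation is not given in the labels and was not tested.

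With the median transcript length the surface share was 20.7% in KO and 20.8% in WT with IL-1beta, 21.2% in KO and 20.6% in WT with IL-18, 20.1% in KO and 20.3% in WT with antigen alone, and 13.7% in KO and 16.5% in WT without antigen. Tlr5 has the fewest counts of the receptors, 8 to 57 in a library, and the widest standard errors.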

Other observations

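The table also holds Tlr11 and Tlr12, mouse receptors for profilin, at very low levels. Tlr11 was at 0.128, 0.199 and 0.0441 CPM with antigen and 0.59, 3.2 and 0.629 CPM without in KO, and at 0.169, 0.461 and 0.444 CPM with and 2.27, 2.17 and 2.85 CPM without in WT. It fell in both genotypes (edgeR, adjusted p = 0.000345 in KO and 0.000214 in WT), by 2.70 on the log2 scale in WT, and too few counts were left with antigen in KO to give a fold. Tlr12 was at 1.87, 2.68 and 2.96 CPM with antigen and 0.737, 3.83 and 0.449 CPM without in KO, where KO replicate 2 without antigen stood far above its replicates for both genes. Tlr12 was not called in KO (0.64) or in WT (-0.60; edgeR, adjusted p = 0.228 in both). It was called higher with antigen in KO without that library (2.09; edgeR, adjusted p = 6.88e-07), and lower in WT in a fit of the compared libraries alone (-0.58; edgeR, adjusted p = 0.0086).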
